A study of Mus musculus with 5 samples.

Results

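Transcript levels of 9 cytokine and growth factor receptor genes were followed in hematopoietic stem cells (HSCs) sorted from mouse bone marrow. The genes were taken by name from the deposited expression table, in which they make up 9 of 55335 genes. They are Csf1r and Tnfrsf11a (Rank), the genes of the engineered alleles, together with Csf2ra, Csf2rb, Csf3r, Epor, Flt3, Il6st and Tek. Animals were 3 weeks old and are labelled C57BL/6J, and the sorted HSCs were negative for lineage markers, positive for Kit, Sca-1 and CD150, and negative for CD48. The wild-type group has 3 libraries. The other group has 2 libraries, with the label RankCre-ki and the genotype RankCre-ki/wt;Csf1r fl/-, in which 1 Rank allele carries Cre and Csf1r is present as a floxed and a null allele. By the study's methods the Csf1r null line was kept on C3H/HeJ and the other lines on C57BL/6J, and each library was made from 80 to 90 cells. Citing earlier work, the study states that among immune cells this Cre acts only in macrophages of embryonic origin. How many animals gave a library is not given in the sources used here, so p-values measure the spread between these libraries.

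Cytokine receptors let blood cells read signals from their surroundings. Csf1r, Flt3 and Tek are receptor tyrosine kinases, Rank belongs to the TNF receptor family, and the receptors for GM-CSF, G-CSF, erythropoietin and the IL-6 family lack a kinase of their own and signal through JAK kinases and STAT factors. In HSCs many lineage receptors are held at a low level, whereas Tek, the receptor for angiopoietins, is known as a receptor of the stem cells themselves.

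The unit is TPM, the share of a gene among the length-corrected transcripts of its library scaled to a fixed total, so levels of different genes can be compared. TPM holds no depth, and only the spread between libraries tells the precision of a value. Libraries differed in breadth: between 9021 and 11084 genes reached 1 TPM in the wild-type libraries, against 12801 and 16386 in RankCre-ki replicates 1 and 2, and 11.8% to 20.6% of the tested genes were listed at 0 against 5.71% and 2.83%. Values are listed in the order of replicates 1, 2 and 3 for wild-type and 1 and 2 for RankCre-ki. By their names the libraries fall into 2 sets. RankCre-ki replicate 2 with wild-type replicate 1 is called name series 1 here. Name series 2 holds the other 3 libraries. RankCre-ki replicate 2 is labelled female, yet the Y-linked Eif2s3y was at 62.5 TPM in it and Xist at 0.0229 TPM. Wild-type replicate 1, labelled male, had 41.6 and 0.0273 TPM of these, so the name series and the expression of sex-linked genes cannot be told apart. Groups are therefore named by their labels, and the values without that library are given where it matters. In bulk samples, fewer cells with a transcript and less transcript per cell cannot be told apart.

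Tek held the highest mean level of the 9 receptors and Tnfrsf11a the lowest. The order of mean log2(TPM + 1) over the 5 libraries, with its SD, was Tek at 4.31 ± 0.96, Csf2ra at 3.80 ± 0.92, Epor at 2.99 ± 2.74 and Flt3 at 2.71 ± 1.05 (n = 5). Il6st at 2.38 ± 1.69, Csf2rb at 2.24 ± 0.25, Csf1r at 1.84 ± 1.77, Csf3r at 1.67 ± 1.60 and Tnfrsf11a at 0.72 ± 0.70 followed. In 0 of the 8 neighbouring pairs was the mean difference within libraries larger than its SD. Of the wider pairs compared, the level of Tek was above that of Tnfrsf11a in 5 of 5 libraries, by 3.59 ± 1.33 (SD) on the log2 scale, and Csf2rb was above Tnfrsf11a in 5 of 5, by 1.52 ± 0.68 (SD). The levels of Epor and Csf1r exceeded that of Tnfrsf11a by less than the SD, at 2.27 ± 2.38 with Epor higher in 3 of 5 libraries and at 1.12 ± 1.83 with Csf1r higher in 4 of 5.

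**Figure D1:**
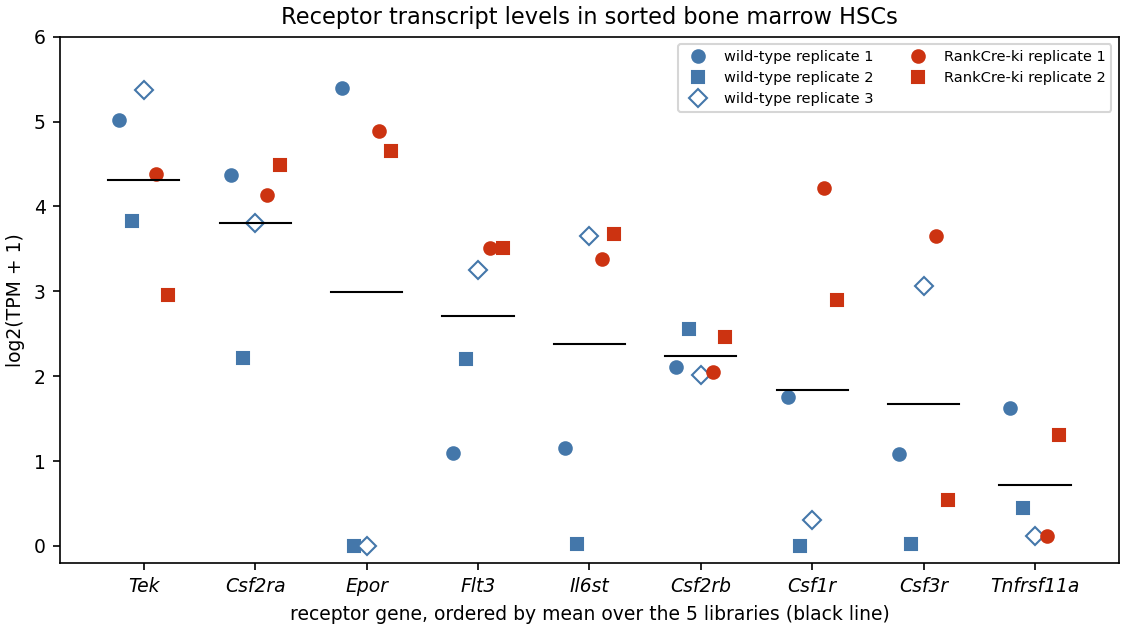
Level of each receptor gene as log2(TPM + 1), 1 point per library (blue: wild-type, red: RankCre-ki, with shapes for replicate numbers), ordered by the mean over the 5 libraries, which is drawn as a black line. Csf2rb is the tightest at 2.24 ± 0.25 (SD, n = 5), while Epor falls into libraries at 0 and libraries between 24.2 and 41.1 TPM.

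Of the 45 values, 3 were at 0, 10 were under 1 TPM and 17 were at 10 TPM or more. Csf2ra, Csf2rb, Flt3 and Tek reached 1 TPM in every library. Summed over the 9 genes, the wild-type libraries held 103, 25.7 and 84.1 TPM and the RankCre-ki libraries 117 and 87.5 TPM. The top receptor was not the same throughout. Epor held 39.7% of the sum in wild-type replicate 1, 24.4% in RankCre-ki replicate 1 and 27.6% in RankCre-ki replicate 2, whereas Tek held 51.3% and 48.0% in wild-type replicates 2 and 3. Wild-type replicate 2, the library with the lowest sum, had 4 of the 9 receptors at 1 TPM or more, and the others had 6 to 9.

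The comparison of the groups asks whether HSCs that matured without embryonic macrophages and osteoclasts read out different receptors. All 9 genes passed the filter on low values, and 0 passed the threshold of an adjusted p of at most 0.1 with an absolute log2 fold change above 2 (limma, Benjamini-Hochberg), where 0 of all 13981 tested genes passed (0%). Adjusted p ranged from 0.706 to 0.999 over the receptors. At an unadjusted p under 0.05 there was 1 receptor, Csf1r, which was higher, against 6.87% of all tested genes in either direction and 6.34% that were higher. For 2 receptors the RankCre-ki libraries were both above every wild-type library, namely Csf1r and Flt3, against 18.8% of all tested genes, and for 0 receptors both were below, against 3.71%. Fold changes were above 0 for 7 of 9 receptors, where 72.3% of all genes were. The median log2 fold change was 0.85 for the receptors and 0.52 for all tested genes, and 6 of 9 receptors lay above the latter. The shares of the receptors were near those of all genes and are no result about the receptors.

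The name series gave the same sign for 6 of the 9 receptors. Csf1r, Csf2ra, Flt3 and Il6st were higher in RankCre-ki in both series, where 44.5% of all tested genes were, and Tnfrsf11a and Tek were lower in both. Csf2rb, Csf3r and Epor went opposite ways, as did 41% of all genes. The median change of the receptors was 0.12 in series 1 and 1.12 in series 2, where it was 0.53 and 0.40 for all genes.

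**Figure D2:**
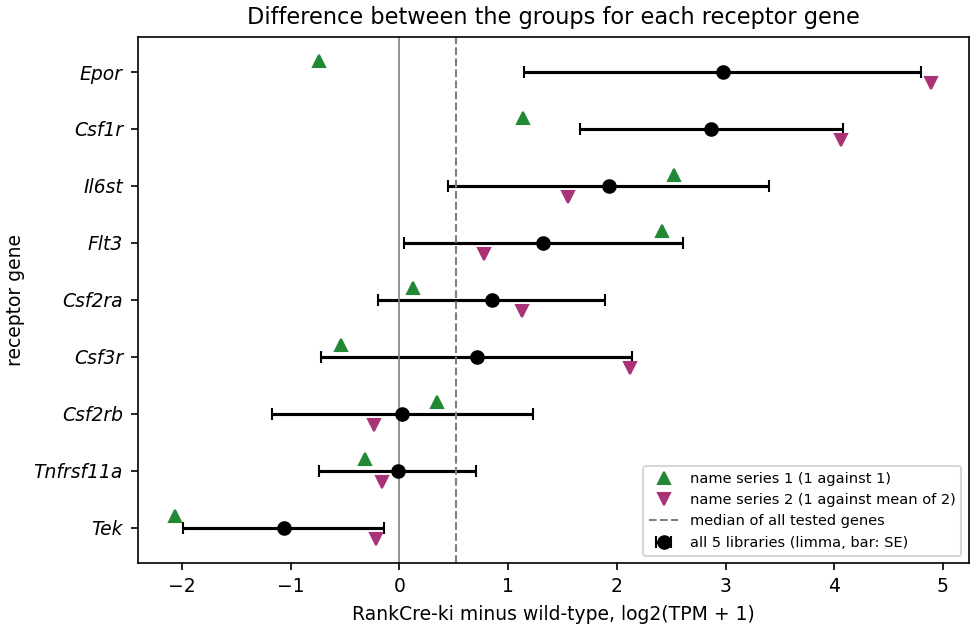
Difference of mean log2(TPM + 1), RankCre-ki minus wild-type, for each receptor (black point, bar: SE of the limma fit over 5 libraries), with the change within name series 1 (upward triangle) and name series 2 (downward triangle) and the median of all tested genes at 0.52 (dashed line). Csf1r and Epor have the widest distance from that line, and the series agree in sign for Csf1r but not for Epor.

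Tnfrsf11a (ENSMUSG00000026321, chr1:105780718-105847981, plus strand, GRCm38) encodes Rank, through which RANKL drives osteoclast formation. The Cre allele lies in this gene, whose values do not tell the alleles apart. It had wild-type TPM of 2.08, 0.360 and 0.0806 and RankCre-ki TPM of 0.0811 and 1.47. The libraries of name series 1 were high and those of series 2 low, and the groups overlapped. The log2 difference between the groups was -0.02 ± 0.72 (SE), with a limma adjusted p of 0.999, and it was -0.61 without RankCre-ki replicate 2 and 0.58 without replicate 1. Its ligand gene Tnfsf11 (RANKL) was at 0 in 4 libraries and at 0.0835 TPM in RankCre-ki replicate 2. The decoy receptor gene Tnfrsf11b (osteoprotegerin) was at 1.31 TPM in RankCre-ki replicate 1 and at 0 elsewhere. Of the 10 osteoclast markers examined, 2 were tested. The sum of all 10 spanned 14.2 to 36.0 TPM over the wild-type and 19.7 to 31.9 TPM over the RankCre-ki libraries. Mmp9 was at 0 in all libraries, and Nfatc1 was the highest.

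Csf1r (ENSMUSG00000024621, chr18:61100598-61132149, plus strand) encodes the receptor for CSF-1 and IL-34 on which macrophages depend. The wild-type libraries had 2.39, 0 and 0.234 TPM, and the RankCre-ki libraries 17.5 and 6.46 TPM. Both libraries labelled RankCre-ki were above all wild-type libraries, with means of 12 ± 7.84 (SD, n = 2) and 0.873 ± 1.32 TPM (SD, n = 3). A log2 fold change of 2.87 ± 1.21 (SE) was fitted, at a limma p of 0.0451 (adjusted p = 0.706), which lay 2.35 above the median of all genes. The change was 1.14 within series 1 and 4.06 within series 2. The higher values stood in the group whose label gives 1 null Csf1r allele. TPM per gene does not show the allele a fragment came from, and whether the null allele leaves a transcript was not tested. Without RankCre-ki replicate 2 the fold change was 3.53, at a limma p of 0.0513. Over 13 alternatives it stayed above 0, between 1.89 and 4.62, but p was under 0.05 in 4 and not in 9 of them.

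Breadth of detection moved with the level of Csf1r between the groups, and its part in the difference was not tested. A neighbour also touches the value. The last 873 bases of the Csf1r gene overlap Hmgxb3 on the opposite strand, and 16.8% of the windows of 100 bases (the read length) of the Csf1r transcript searched (4701 bases) occur in Hmgxb3 transcripts as well. Hmgxb3 had wild-type TPM of 0.976, 0.944 and 3.77 and RankCre-ki TPM of 3.66 and 18.4. It is not given in the sources used here whether strand was used for TPM, and the part of Hmgxb3 in the Csf1r values was not tested.

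Markers of macrophages, cells that depend on Csf1r, were read beside it. Of 22 monocyte and macrophage markers, 8 were tested, 0 had both RankCre-ki libraries above all wild-type libraries, and their median log2 fold change was 0.10, where it was 0.52 for all genes. The sum of all 22 spanned 286 to 347 TPM over the wild-type and 202 to 348 TPM over the RankCre-ki libraries. Lyz2 (lysozyme) held most of it, and Adgre1 (F4/80), Fcgr3, C1qc and Timd4 were at 0 in all 5 libraries. The ligand gene Csf1 reached at most 0.230 TPM, and Il34 was listed at 0 outside wild-type replicate 1, which had 3.36 TPM. The 3 tested genes with the pattern most like Csf1r over the 5 libraries, by root mean square difference of centred log2(TPM + 1), were Gm25002 (0.329), Plekhg1 (0.372) and Gtpbp1 (0.375).

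Flt3 (ENSMUSG00000042817, chr5:147330741-147400489, minus strand) encodes the FLT3 ligand receptor, which rises as HSCs become multipotent progenitors. It had wild-type TPM of 1.13, 3.61 and 8.54, and both RankCre-ki libraries had 10.4 TPM. The RankCre-ki libraries were close to each other and above all wild-type libraries, though wild-type replicate 3 came near. Its log2 difference was 1.32 ± 1.29 (SE) with an adjusted p of 0.946 (limma), and the changes within series were 2.42 and 0.78. It was 1.32 without RankCre-ki replicate 2 and 0.78 without wild-type replicate 1.

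Kit, the related receptor used in the sort, was above Flt3 in every library. The TPM ratio of Kit to Flt3 was 18, 29.8 and 11.9 in the wild-type and 14.0 and 7.83 in the RankCre-ki libraries. The FLT3 ligand gene Flt3l had wild-type TPM of 57.7, 43.2 and 19.5 and RankCre-ki TPM of 25.4 and 5.71, so its groups overlapped. Among 18 multipotent progenitor and lymphoid markers, 6 were tested, with a median log2 fold change of 0.36 against 0.52 for all genes. The sum of all 18 spanned 42.7 to 168 TPM over the wild-type and 57.9 to 84.6 TPM over the RankCre-ki libraries. Cd79b was the highest of them, and Dntt, Cd79a and Igll1 were among those at 0 in all libraries. Cd48, a marker of the list that was chosen here after its values were seen, is the antigen excluded by the sort. It was listed at 0 in each wild-type library, with RankCre-ki TPM of 4.92 and 5.62 (a limma p of 0.00613, adjusted p = 0.521). Of the 6 tested markers it was the 1 with p under 0.05, a limit at which 6.34% of all tested genes were higher. It was also the 1 with both RankCre-ki libraries above all wild-type libraries, against 18.8% of all tested genes. The part of cells outside the gate in the Flt3 values was not tested.

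Tek (ENSMUSG00000006386, chr4:94739289-94874976, plus strand) encodes Tie2, the angiopoietin receptor of HSCs and endothelial cells. It had wild-type TPM of 31.5, 13.2 and 40.3 and RankCre-ki TPM of 19.9 and 6.78. RankCre-ki replicate 2 was the lowest library, while replicate 1 lay within the wild-type range. The log2 fold change of -1.07 ± 0.92 (SE) had an adjusted p of 0.933 (limma), and it was -0.35 without RankCre-ki replicate 2 and -1.78 without replicate 1. Within name series 1 the change of Tek was -2.06, and within series 2 it was -0.21.

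The ligand gene Angpt1 was above Tek in every library, with wild-type TPM of 43.8, 150 and 226 and RankCre-ki TPM of 261 and 104. Tie1, the relative that pairs with Tie2, had wild-type TPM of 1.37, 3.64 and 11.8 and RankCre-ki TPM of 22.5 and 26.1. Its RankCre-ki libraries were above all wild-type libraries, as for 18.8% of all tested genes (adjusted p = 0.864, limma). The TPM ratio of Tek to Tie1 was 23.0, 3.62 and 3.42 in the wild-type and 0.885 and 0.260 in the RankCre-ki libraries. Tek was thus the higher of the pair in the wild-type libraries, and Tie1 in those labelled RankCre-ki. Angpt2 was listed at 0 in every wild-type library, against RankCre-ki TPM of 3.03 and 0.332. Endothelial markers bear on these genes: 6 of 16 were tested, with a median log2 fold change of 0.22 against 0.52 for all genes. Of the 6, 2 had both RankCre-ki libraries above all wild-type libraries (18.8% of all tested genes). These were Tie1 itself, given above, and Esam. The sum of all 16 markers spanned 200 to 298 TPM over the wild-type and 298 to 478 TPM over the RankCre-ki libraries. Esam, an adhesion gene named after its values were seen, was the 1 marker of the list with p under 0.05. At that limit 6.34% of all tested genes were higher. It had wild-type TPM of 10.9, 9.73 and 32.4 and RankCre-ki TPM of 137 and 94.0, at a limma p of 0.00602 (adjusted p = 0.521). Egfl7 was the highest of the 16, and Plvap and Sox17 were at 0 in all libraries.

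Csf2ra (ENSMUSG00000059326, chr19:61223957-61228429, minus strand) encodes the ligand-binding chain of the GM-CSF receptor. It had wild-type TPM of 19.6, 3.65 and 13.0 and RankCre-ki TPM of 16.6 and 21.5. Wild-type replicate 2 was low, and in the other 4 libraries, which spanned 13.0 to 21.5 TPM, the groups overlapped. Between the groups it differed by a log2 fold change of 0.85 ± 1.05 (SE), with an adjusted p of 0.976 (limma), and it was 0.23 without wild-type replicate 2, 1.30 without wild-type replicate 1 and 0.67 without RankCre-ki replicate 2.

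Csf2rb (ENSMUSG00000071713, chr15:78325752-78353847, plus strand) encodes the beta chain shared by the receptors for GM-CSF, IL-3 and IL-5. Its values were the most even of the 9 receptors, with wild-type TPM of 3.33, 4.86 and 3.04 and RankCre-ki TPM of 3.12 and 4.50. The groups overlapped throughout. The log2 fold change was 0.03 ± 1.20 (SE) with an adjusted p of 0.999 (limma), and the sign turned under median-ratio scaling (-0.33) and quantile normalization (-1.13), and without RankCre-ki replicate 2 (-0.18). That SE is moderated towards genes of a like level. The residual SD of Csf2rb itself was 0.288, at percentile 5.00 of all tested genes, where the median gene had 1.10. The TPM ratio of Csf2ra to Csf2rb was 5.90, 0.752 and 4.28 in the wild-type and 5.31 and 4.78 in the RankCre-ki libraries, so the binding chain was the higher one in 4 of 5 libraries.

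Mouse carries a close copy, Csf2rb2, which encodes a beta chain of the IL-3 receptor only and lies on the opposite strand of the same chromosome. The coding sequences of 2688 and 2634 bases are identical at 95.2% of 2628 aligned positions, and 11% of the coding windows of 100 bases of Csf2rb occur unchanged in Csf2rb2. The following stretch, one with the median identity among 1310 such stretches of 90 bases, is shown because fragments from it can be told apart only at the 2 bases in capitals. It lies in exon 5 of Csf2rb (chr15:78338810-78338899, plus strand) and exon 4 of Csf2rb2 (chr15:78294432-78294521, minus strand), in GRCm38.
Csf2rb: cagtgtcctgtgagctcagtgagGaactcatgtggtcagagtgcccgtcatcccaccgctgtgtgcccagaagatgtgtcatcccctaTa
Csf2rb2: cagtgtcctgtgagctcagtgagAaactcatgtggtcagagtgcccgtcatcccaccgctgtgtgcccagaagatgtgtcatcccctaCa
Csf2rb2 had wild-type TPM of 1.48, 0.0148 and 2.63 and RankCre-ki TPM of 2.94 and 1.61. It was below Csf2rb in every library, and the split of fragments between the copies is uncertain. Il3ra, the IL-3 binding chain, had wild-type TPM of 0, 5.47 and 4.53 and RankCre-ki TPM of 5.45 and 0.395, high in name series 2 and low in series 1. The ligand genes Csf2, Il3 and Il5 were at 0 in all libraries.

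Csf3r (ENSMUSG00000028859, chr4:126024550-126044440, plus strand) encodes the G-CSF receptor of the granulocyte lineage. It had wild-type TPM of 1.12, 0.0115 and 7.34 and RankCre-ki TPM of 11.6 and 0.453. High and low libraries occurred in both groups, which overlapped. Its log2 fold change was 0.71 ± 1.43 (SE) with an adjusted p of 0.990 (limma), and single libraries decided it: it was 2.27 without RankCre-ki replicate 2 and -0.85 without replicate 1, and leaving out wild-type replicate 2 gave 0.03 while leaving out replicate 3 gave 1.55. Of 16 granulocyte markers, 6 were tested, with a median of 0.64 against 0.52 for all genes. The sum of all 16 spanned 183 to 437 TPM over the wild-type and 327 to 430 TPM over the RankCre-ki libraries. Of the 6, 1 had both RankCre-ki libraries above all wild-type libraries, against 18.8% of all tested genes. It was S100a8, also the 1 with p under 0.05 (6.34% of all tested genes were higher at that limit). This calprotectin gene, named after its values were seen, had wild-type TPM of 0.0677, 0 and 0 and RankCre-ki TPM of 8.31 and 12.9. Its limma p was 0.00512 (adjusted p = 0.521). The other calprotectin gene, S100a9, was not tested and went the other way. It had wild-type TPM of 2.17, 0 and 0 and was at 0 in both RankCre-ki libraries. The part of granulocytes in the Csf3r values was not tested. Prtn3 was the highest, and Elane, Ctsg, Cebpe, Lcn2 and Ly6g were at 0 in all libraries, as was the ligand gene Csf3.

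Epor (ENSMUSG00000006235, chr9:21958897-21963506, minus strand) encodes the erythropoietin receptor. It was either above 20 TPM or listed at 0, with wild-type TPM of 41.1, 0 and 0 and RankCre-ki TPM of 28.7 and 24.2. The highest library was a wild-type one, so the groups overlapped. The fold change of 2.97 ± 1.83 (SE) on the log2 scale had a limma p of 0.142 (adjusted p = 0.881), and the residual SD of 2.54 stood at percentile 96.2 of all tested genes. Series 1 gave a change of -0.74 and series 2 of 4.89. The fold change was 3.09 without RankCre-ki replicate 2, and 4.77 without wild-type replicate 1, at a limma p of 0.00452 (adjusted p = 0.564). It was 2.07 both without wild-type replicate 2, at a limma p of 0.289, and without wild-type replicate 3, at a limma p of 0.314.

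A listed 0 in a gene of that level was uncommon. Of 4576 genes with a median of at least 20 TPM, 193 (4.22%) were at 0 in at least 1 library and 13 (0.284%) in at least 2. Epor was 1 of 3 tested genes that were at 0 in wild-type replicates 2 and 3 and at 20 TPM or more in the other 3 libraries. The genes most like Epor in pattern were Acy3 (root mean square difference 0.282), Dhps (0.320) and Gata1 (0.407), the latter an erythroid transcription factor with wild-type TPM of 52.8, 0 and 0 and RankCre-ki TPM of 17.1 and 15.3.

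**Figure D3:**
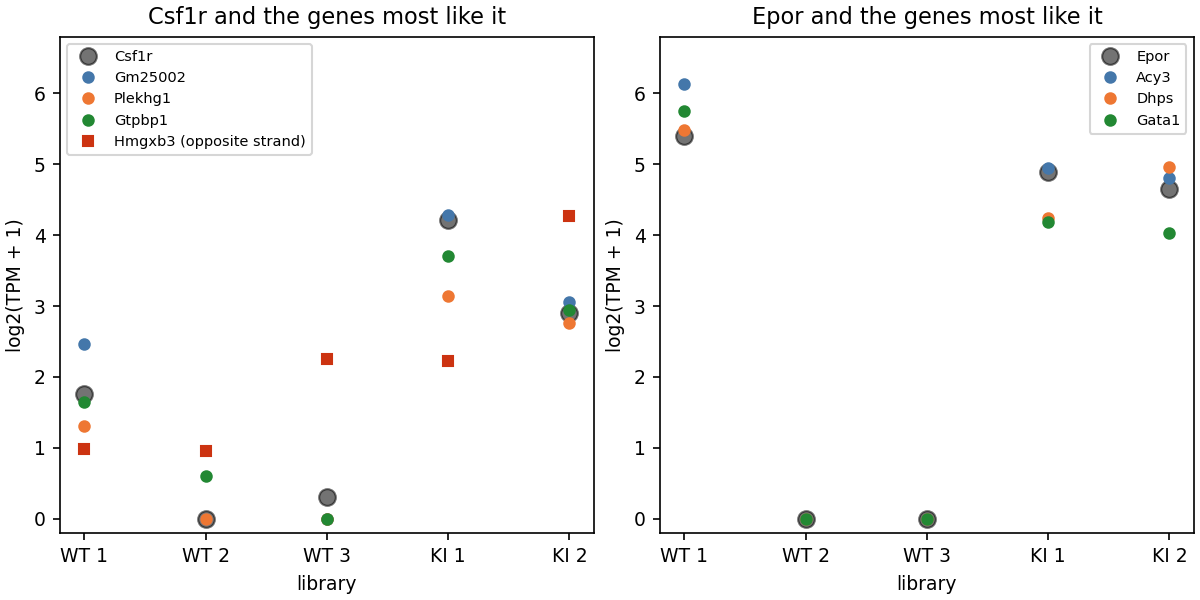
Level as log2(TPM + 1) in each library (WT: wild-type, KI: RankCre-ki) for Csf1r and Epor (large grey points) and for the 3 tested genes whose pattern is most alike (small points), with Hmgxb3, which overlaps Csf1r, as red squares. Epor, Acy3, Dhps and Gata1 are all at 0 in wild-type replicates 2 and 3, and Hmgxb3 reaches its highest value, 18.4 TPM, in RankCre-ki replicate 2.

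Erythroid markers were read beside Epor. Of the 16 listed, 15 were in the table and 12 were tested, and their median log2 fold change was 1.21 against 0.52 for all genes. Of the 12, 2 had both RankCre-ki libraries above all wild-type libraries, against 18.8% of all tested genes. The 1 with p under 0.05 (6.34% of all tested genes were higher at that limit) was the globin gene Hbb-bt, named after its values were seen. It had wild-type TPM of 36.2, 124 and 109 and RankCre-ki TPM of 251 and 632, at a limma p of 0.00949. Of the other globin genes listed, Hbb-bs and Hba-a2 had log2 fold changes of 1.01 and 0.88, and Hba-a1 of -0.77. The sum of the 15 markers spanned 1098 to 1917 TPM over the wild-type and 2089 to 2989 TPM over the RankCre-ki libraries. Car2 was the highest, with wild-type TPM of 788, 1101 and 1753 and RankCre-ki TPM of 1739 and 1336. Without Car2 the sum was 310, 152 and 165 TPM in the wild-type and 350 and 1652 TPM in the RankCre-ki libraries. Between 4 and 10 of the 15 reached 1 TPM in the wild-type libraries, against 10 and 13 in RankCre-ki replicates 1 and 2. Slc4a1, the gene of a red cell membrane transporter, was among those at 0 in all libraries. The part of erythroid cells in the Epor values was not tested. The ligand gene Epo was at 0 in all libraries.

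Promoters were searched for the letters AGATAA, bound by GATA factors, and GAGGAA, bound by PU.1, on both strands (reverse complements TTATCT and TTCCTC), as these factors are known regulators of erythroid and myeloid receptor genes. None of the matches in the receptor promoters overlapped another. RefSeq promoter windows of 300 bases in GRCm38.p6 were matched for 7 of the 9 receptors. AGATAA was found in Epor, 54 bases before the start, and in Tek, 36 bases after it, and in 11.2% of all 32851 windows. GAGGAA was found in Csf2ra at 2 places and in Csf3r at 1, and in 28.3% of all windows. The 250 bases before the start are shown for Epor (chr9:21963577-21963826, minus strand), the receptor at 0 in some libraries, and for Csf2ra (chr19:61228419-61228668, minus strand), a receptor read in all, with motif letters in capitals.
Epor: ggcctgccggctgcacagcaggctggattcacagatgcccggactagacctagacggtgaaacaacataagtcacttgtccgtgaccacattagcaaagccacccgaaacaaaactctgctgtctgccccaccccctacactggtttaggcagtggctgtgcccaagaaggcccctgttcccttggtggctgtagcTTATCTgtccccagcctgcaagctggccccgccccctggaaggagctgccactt
Csf2ra: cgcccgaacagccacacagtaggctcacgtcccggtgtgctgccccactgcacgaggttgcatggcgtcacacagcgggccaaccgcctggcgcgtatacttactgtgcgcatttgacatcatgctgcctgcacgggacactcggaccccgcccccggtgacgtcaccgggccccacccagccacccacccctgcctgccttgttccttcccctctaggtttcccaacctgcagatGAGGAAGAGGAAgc
A match is a description of the letters and says nothing of binding in these cells.

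Il6st (ENSMUSG00000021756, chr13:112464070-112510086, plus strand) encodes gp130, the signalling chain shared by the IL-6 family. It had wild-type TPM of 1.23, 0.0130 and 11.5 and RankCre-ki TPM of 9.44 and 11.8. Wild-type replicates 1 and 2 were low, wild-type replicate 3 stood with the RankCre-ki libraries, and the groups overlapped. On the log2 scale the difference was 1.92 ± 1.47 (SE) with an adjusted p of 0.916 (limma), and changes within series were 2.52 and 1.55. Without wild-type replicate 3 it was 2.94 at a limma p of 0.0478, without wild-type replicate 2 it was 1.13 at a limma p of 0.460, and without RankCre-ki replicate 2 it was 1.78.

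Of the binding chains that pair with gp130, Il11ra1 had the highest level in every library, with wild-type TPM of 63.2, 27.3 and 66.0 and RankCre-ki TPM of 123 and 78.1. Il27ra had wild-type TPM of 0, 12.1 and 15.2 and RankCre-ki TPM of 29.2 and 16.4. For both, the RankCre-ki libraries were above all wild-type libraries, as for 18.8% of all tested genes. Adjusted p was 0.887 for Il11ra1 and 0.916 for Il27ra (limma). Il6ra stayed between 0.0406 and 1.84 TPM, and Cntfr was at 0 in all libraries. Il6 was at 0 throughout, and Osm, another ligand of the family, was at most 4.96 TPM.

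**Figure D4:**
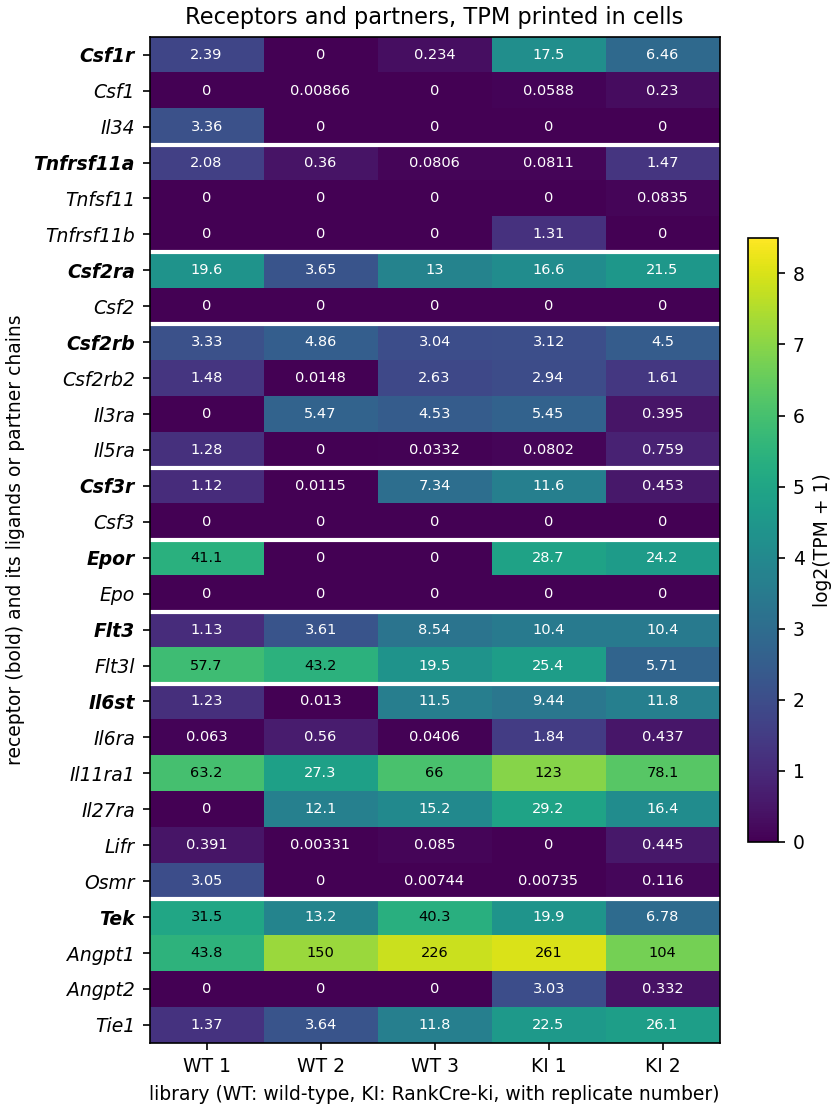
TPM of each receptor (bold) with its ligand genes and partner chains in the 5 libraries (WT: wild-type, KI: RankCre-ki), coloured by log2(TPM + 1). Most ligand genes are at or near 0, whereas the ligand genes Angpt1 and Flt3l are above 5 TPM in every library, as is the binding chain gene Il11ra1.

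The wider pathway was described by counts. Of 13 partner receptors, 7 were tested and 0 passed the threshold. For 4 of the 7 the groups did not overlap and RankCre-ki was higher, against 18.8% of all tested genes, and the median log2 fold change was 1.0, against 0.52. Of 17 ligand genes, 3 were tested, 0 had p under 0.05, and the median was 0.52. Of 41 other cytokine and growth factor receptors, 27 were tested, 0 had p under 0.05, 11 had both RankCre-ki libraries above all wild-type ones (18.8% of all tested genes), and the median was 0.94. Of 35 signal transducers and feedback genes, 34 were tested and 2 had p under 0.05, against 6.87% of all tested genes. In this list 10 had both RankCre-ki libraries above and 1 both below, against 18.8% and 3.71%, and the median was 0.56. These 2 were the JAK family kinase gene Tyk2, with a log2 fold change of 2.24 ± 0.81 (SE, adjusted p = 0.574, limma), and the adaptor gene Gab2, with 1.82 ± 0.66 (SE). HSC markers were present, as 16 of 16 were tested and 13 reached 1 TPM in all libraries.

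**Figure D5:**
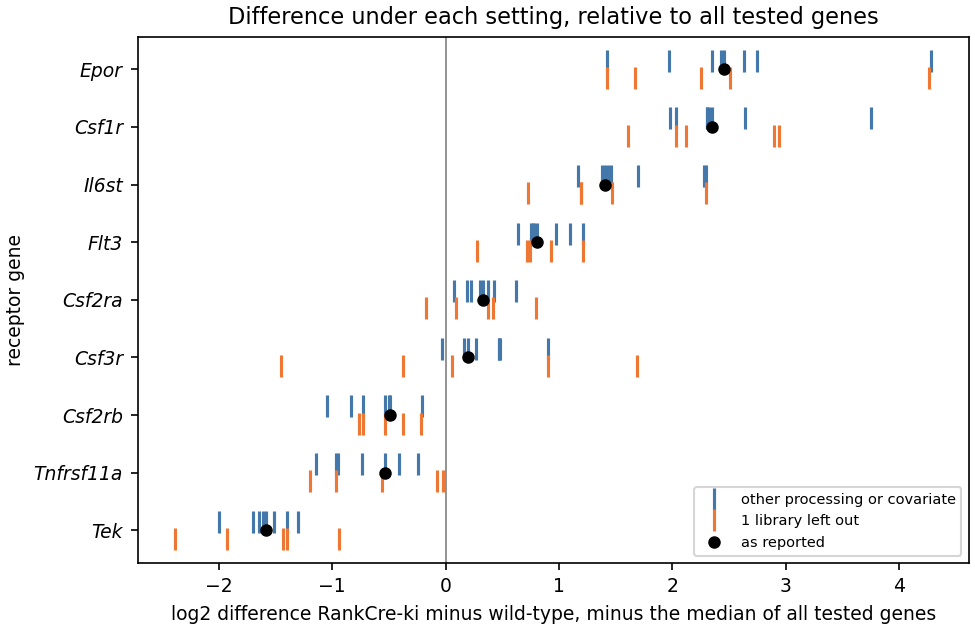
Log2 difference of each receptor, RankCre-ki minus wild-type, minus the median of all tested genes under the same setting, as reported (black point), under other processing or covariates (blue ticks) and with 1 library left out (orange ticks). Csf1r, Epor, Il6st and Flt3 stay to the right of 0 and Tek, Csf2rb and Tnfrsf11a to the left in every setting run, while Csf2ra and Csf3r cross it.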

How the data were processed

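Full-length cDNA libraries of 3 wild-type and 2 RankCre-ki pools of sorted HSCs were sequenced by the authors in paired reads of 100 bases. The authors deposited TPM per gene in a table of 55427 rows, and the program that made the TPM is not given in the sources used here. For their own test they aligned to mm10 with gsnap, counted uniquely mapped fragments with featureCounts 2.0.1 and fitted a count model. By their methods, different tagmentation kits were used for sets with the composition of the name series, and that a series is such a set is an inference.

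Spike-in rows (92, all at 0) were removed, which left 55335 genes. Values were transformed to log2(TPM + 1), a scale on which changes of low genes are understated. The 13981 genes that reached 1 TPM in 2 or more libraries entered limma 3.58.1 under R 4.3.3 (lmFit, eBayes with trend, two-sided), without covariate, and p was adjusted by Benjamini-Hochberg over these genes. The threshold was an adjusted p of at most 0.1 with an absolute log2 fold change above 2, and p is unadjusted unless called adjusted. The code was tested on simulated data. Changes within a name series are differences of log2(TPM + 1), with the mean of 2 wild-type libraries in series 2. TPM carries no counts, so no counting interval can be given.

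Positions came from GENCODE M21 (GRCm38) and promoters from RefSeq (GRCm38.p6). The 9 receptors and the 12 gene lists were chosen with earlier results of these data known, and the transducer list also holds the aminopeptidase gene Lnpep. By the naming rule, the receptors, their partner chains and ligands, up to 2 genes per direction and further pathway list (lowest p, if under 0.05), the 3 genes most like Csf1r and Epor, and the markers at 0 in all libraries or highest in their list are named. Hmgxb3, Cd48, Esam, S100a8, S100a9, Hbb-bt, the other listed globin genes and the sex-linked genes are named beside the results they touch. Some genes that the rule would name are not reported here. Alternatives were another pseudocount, other filters, median-ratio and quantile scaling, the name series or the replicate number in the model, no variance trend, and each library left out.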

Additional observations from a re-analysis of the deposited data

How the results depend on the processing

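No receptor passed the threshold under any of the 13 alternatives. For all genes, the count past the threshold was 0 as reported, 1 with the replicate block, and between 0 and 304 with a library left out: 304 without RankCre-ki replicate 1 and 1 without wild-type replicate 1. Where a RankCre-ki library was left out, the remaining one is assumed to vary like the wild-type libraries. The receptors with both RankCre-ki libraries above all wild-type libraries numbered 2 as reported, 1 under quantile normalization and between 2 and 4 with a library left out, which also leaves fewer libraries to exceed: 4 without wild-type replicate 1 or without RankCre-ki replicate 1, where the share of all tested genes was 29.6% and 32.6%, against 18.8% as reported. The median log2 fold change of the receptors, 0.85 as reported, ranged from 0.23 to 1.55.

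Directions held under every alternative for Csf1r, Csf2ra, Epor, Flt3, Il6st and Tek. Csf2rb turned to -0.33 under median-ratio scaling, -1.13 under quantile normalization and -0.081 with the replicate block, and ranged from -0.18 to 0.23 with a library left out. Csf3r turned to -0.12 under quantile normalization and ranged from -0.85 to 2.27 with a library left out. Tnfrsf11a was at -1.23 under quantile normalization and ranged from -0.61 to 0.58 with a library left out. Why these signs turned was not tested. Scaling moved the median of all genes from 0.52 to 0.21 (median-ratio) and -0.09 (quantile), and the share of genes that were higher from 72.3% to 59.3% and 46.7%. Relative to that median, Csf1r stood at 2.35, 2.31 and 1.98 and Epor at 2.46, 2.35 and 2.63. The limma p of Csf1r ranged from 0.0177 to 0.178 and its adjusted p from 0.468 to 0.99955, and p was above 0.05 without wild-type replicate 2 (0.123) or 3 (0.0913) and without RankCre-ki replicate 1 (0.0951) or 2 (0.0513).

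Replicate numbers are shared by title only. Deviations of same-numbered libraries from their group means correlated at -0.38 and -0.20 across genes. The deviations of the 2 RankCre-ki libraries mirror each other, and same-numbered libraries lie in opposite name series. The correlations therefore cannot decide whether the numbers pair the libraries. With the replicate block the receptors had a median of 1.55, and 565 genes had p under 0.05, against 960 without it. Without depth in the files, a low TPM cannot be given a counting error.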
